A study of Mus musculus with 4 samples.

Results

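Clic5 and 5 genes related to it by family or by binding are described here, 6 of the 12799 genes measured. They are the chloride intracellular channel genes Clic5, Clic1 and Clic4 and the genes of the ERM proteins, Ezr (ezrin), Rdx (radixin) and Msn (moesin), to which CLIC proteins bind. The members were taken by symbol, and Clic5 was included because its level was already known to be higher in the knockout libraries. The values of Clic5 between the genotypes are therefore given as a description with no test, while the others, chosen by family, were tested to ask whether the rise of Clic5 was met by its paralogs or partners.

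CLIC proteins have the fold of an omega-class glutathione transferase and exist both as soluble proteins and bound to membranes. CLIC5 was first found in complexes with ezrin at the actin core of microvilli, and it is found with radixin at the base of the stereocilia of the inner ear. ERM proteins open at the membrane, where they tie the tails of receptors to cortical actin. Osteoclasts, which dissolve bone, grip it through a ring of actin, and in them a form of CLIC5 has been linked to acid secretion.

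The 4 libraries, of poly(A) RNA, came from cultured bone marrow monocytes of female mice aged 12 weeks. All cells received M-CSF at 30 ng/mL and RANKL at 50 ng/mL and were collected on day 3 of osteoclast differentiation. Control cells (n = 2) were Piezo1fl/fl, with both Piezo1 alleles flanked by loxP sites, and knockout cells (n = 2) were Csf1r-iCre;Piezo1fl/fl, in which the recombinase is driven by the Csf1r promoter of the monocyte lineage. The controls carried no Cre, so effects of the transgene and of Piezo1 loss cannot be told apart. Recovered depth was between 14122118 and 18897927 reads, and levels are CPM, the library's reads of a gene scaled to a common library size. Piezo1, which encodes a stretch-gated cation channel, was at 430 and 384 CPM in the controls and at 61.0 and 56.2 CPM in the knockouts, 14.4% of the control mean. The defining osteoclast markers were present, with Acp5 at 8993 CPM and Ctsk at 23060 CPM in their lowest libraries. Macrophage markers were uneven. Csf1r and Cd68 were at 1201 and 1279 CPM in their lowest libraries. Adgre1, Mrc1, C1qa, C1qb, C1qc, Mertk and Fcgr1 lay between 0.979 CPM (Fcgr1, knockout 2) and 51.7 CPM (Adgre1, knockout 1). The libraries are called biological replicates in the design text, with no word on which animals gave them.

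Whether reads of one member could be counted for another was checked first, since the 6 genes form families of similar sequence. The coding sequence of Clic5 was 72.4% identical to that of Clic4 and 66.2% identical to that of Clic1 over aligned bases. Among the ERM genes the identity was 73.8% for Ezr and Msn, 72.0% for Rdx and Msn and 70.0% for Ezr and Rdx. The stretches below are 45 bases long, the length of a read, from GENCODE release M21 transcripts on GRCm38. They are shown because there, within single exons aligned without gaps, another family member comes closest to the first gene of each set. Capitals mark bases that differ from the first gene of each set.
Clic5: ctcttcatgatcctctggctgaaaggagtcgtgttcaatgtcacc
Clic4: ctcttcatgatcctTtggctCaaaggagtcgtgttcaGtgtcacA
Clic1: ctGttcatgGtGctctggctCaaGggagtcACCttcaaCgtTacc
Msn: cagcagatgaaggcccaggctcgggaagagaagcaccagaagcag
Rdx: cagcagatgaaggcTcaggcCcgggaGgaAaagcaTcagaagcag
Ezr: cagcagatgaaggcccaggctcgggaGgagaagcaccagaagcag
The Clic stretches all lie in exon 2 of 6, at chr17:44237181-44237225 (plus strand) for Clic5, chr4:135238879-135238923 (minus) for Clic4 and chr17:35052483-35052527 (plus) for Clic1. Clic4 differed from Clic5 at 4 of the 45 bases and Clic1 at 10. The ERM stretches lie in exon 8 of 13 of Msn at chrX:96160199-96160243 (plus), exon 9 of 14 of Rdx at chr9:52069726-52069770 (plus) and exon 8 of 13 of Ezr at chr17:6742698-6742742 (minus). Rdx differed from Msn at 5 bases there and Ezr at 1.

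No member shared a whole 45-base window with another member, in either orientation, so exact reads separate the 6 genes. Windows shared with other genes were 14 of 8733 (0.16%) for Clic5, 72 of 1753 (4.11%) for Clic1, 198 of 6570 (3.01%) for Clic4, 11 of 3245 (0.34%) for Ezr, 0 of 4594 for Rdx and 92 of 6281 (1.46%) for Msn. The windows of Msn were all shared with Gm24718, a small RNA gene that lies inside Msn on the other strand. Ezr overlaps Sytl3 on the opposite strand, and, as no source used here gives the strand setting of the counting, reads from the overlap cannot be told apart. GENCODE lists no gene overlapping Clic5, Clic1, Clic4 or Rdx.

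Clic5 (ENSMUSG00000023959.9, chr17:44188584-44280172, plus strand, GRCm38) was at 18.8 and 27.1 CPM in control 1 and control 2 and at 96.5 and 96.7 CPM in knockout 1 and knockout 2. Both knockout libraries were higher than both controls, and the means stood 4.21-fold apart (22.96 ± 5.84 against 96.6 ± 0.16 CPM, SD, n = 2 each). The counts behind these values were 290, 387, 1462 and 1779 reads. Control 2 was 43.8% above control 1, and their 95% Poisson intervals, which cover counting error only, did not meet (16.7 to 21.1 and 24.5 to 29.9 CPM). The knockouts lay within each other's intervals (91.6 to 102 and 92.3 to 101 CPM). On the log2(CPM + 0.5) scale the change of Clic5 was 2.07, and it lay between 1.82 and 2.33 with any 1 library left out.

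**Figure D1:**
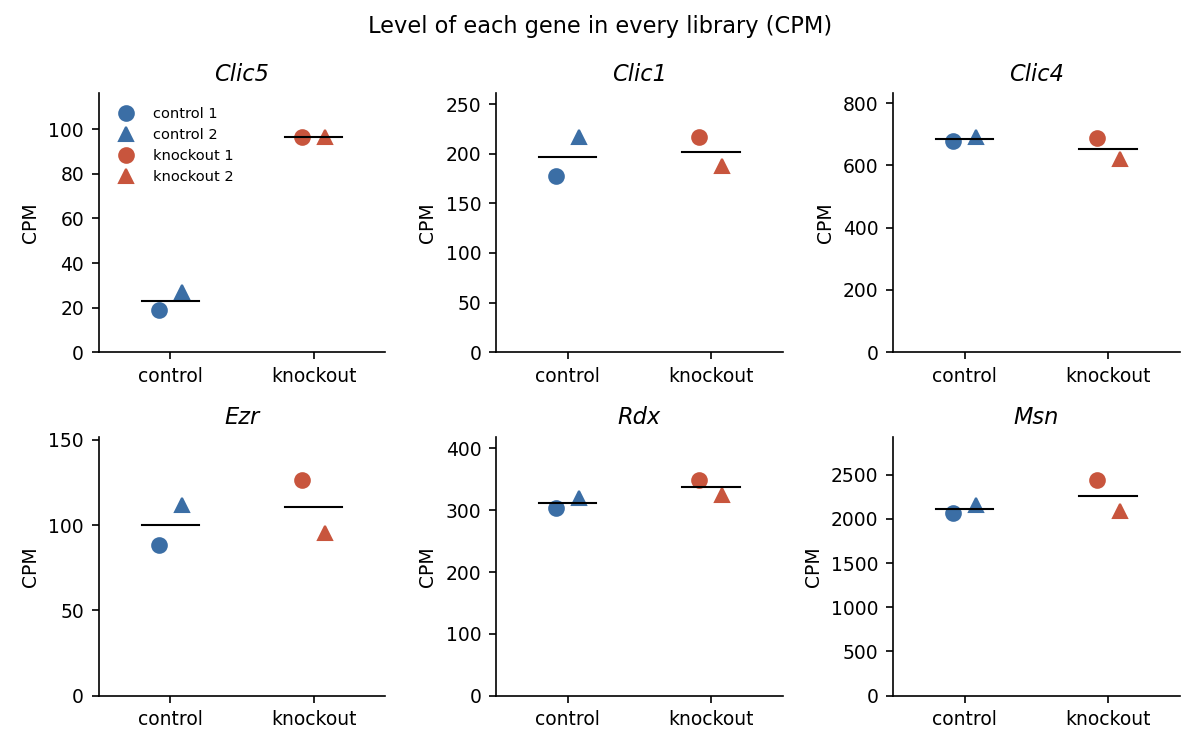
Level of each of the 6 genes in CPM (linear axis from 0) in the 2 control libraries (blue) and the 2 knockout libraries (red), with circles for replicate 1, triangles for replicate 2 and a bar at each group mean. Clic5 sits near 97 CPM in both knockouts and below 28 CPM in both controls, while Clic1, Clic4, Ezr and Msn overlap between the genotypes.

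Neither paralog of Clic5 passed the test. Clic1, a small and widely expressed CLIC (ENSMUSG00000007041.9, chr17:35049966-35058749, plus strand), was at 178 and 217 CPM in the controls and 217 and 187 CPM in the knockouts. The groups overlapped, with 1 high and 1 low library in each. Its log2 fold change was 0.04 (95% interval −0.25 to 0.33, limma Benjamini-Hochberg adjusted p = 0.99975), which allows a fall of up to 16.0% or a rise of up to 25.8%. Clic4, a CLIC that moves between the cytosol, the plasma membrane and the nucleus (ENSMUSG00000037242.8, chr4:135213969-135272814, minus strand), was at 680 and 692 CPM in the controls and 687 and 620 CPM in the knockouts. Only knockout 2 was below the other libraries. Its log2 fold change was −0.07 (95% interval −0.31 to 0.17, limma adjusted p = 0.99975). A change of the size of that of Clic5 lay outside the interval of both paralogs.

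The ERM genes did not pass the test either. Ezr (ENSMUSG00000052397.8, chr17:6738041-6782784, minus strand) encodes the ERM protein first found with CLIC5, and it was at 88.1 and 112 CPM in the controls and 126 and 95.2 CPM in the knockouts. Its groups overlapped, and its interval was the widest of the 5 tested genes (log2 fold change 0.14, −0.24 to 0.52, limma adjusted p = 0.99975), with an upper limit of a 43.6% rise. Rdx (ENSMUSG00000032050.17, chr9:52047173-52088735, plus strand), the partner of CLIC5 in stereocilia, was at 304 and 320 CPM in the controls and 349 and 325 CPM in the knockouts. Its knockouts were both above its controls, but the log2 fold change was small at 0.11 (−0.11 to 0.33, limma adjusted p = 0.99975). Msn (ENSMUSG00000031207.16, chrX:96096042-96168552, plus strand), the main ERM gene of leukocytes, was at 2064 and 2157 CPM in the controls and 2440 and 2091 CPM in the knockouts. Knockout 1 stood above the other libraries, and the change was 0.10 (−0.21 to 0.41, limma adjusted p = 0.99975).

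Of the 5 tested genes, 0 were called by limma at an adjusted p under 0.05, 0 had an unadjusted p under 0.05, and 0 were called by edgeR or DESeq2. Among all 11781 genes tested the share called was 0.161% with limma and with edgeR, in each 0.0424% higher (5 genes) and 0.119% lower (14 genes). With DESeq2 it was 0.535% (0.0679% higher and 0.467% lower), and with the replicate number as a block it was 0.755% (0.153% higher and 0.603% lower). An unadjusted limma p under 0.05 was found for 4.9%. The groups did not overlap for 2 of the 6 genes, Clic5 and Rdx, beside 31.9% of all tested genes. All 6 passed the filter on low values. An exact permutation test of a single gene with 2 libraries against 2 cannot go below p = 0.333. In simulated reads with the depths of these libraries, 64.2% of genes changed 1.5-fold were called by limma, and all 67 changed 2-fold. The simulation gave every gene the same dispersion, not that of these libraries, and changed only genes above a minimum level. The shares called may therefore be lower for real genes that vary more.

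**Figure D2:**
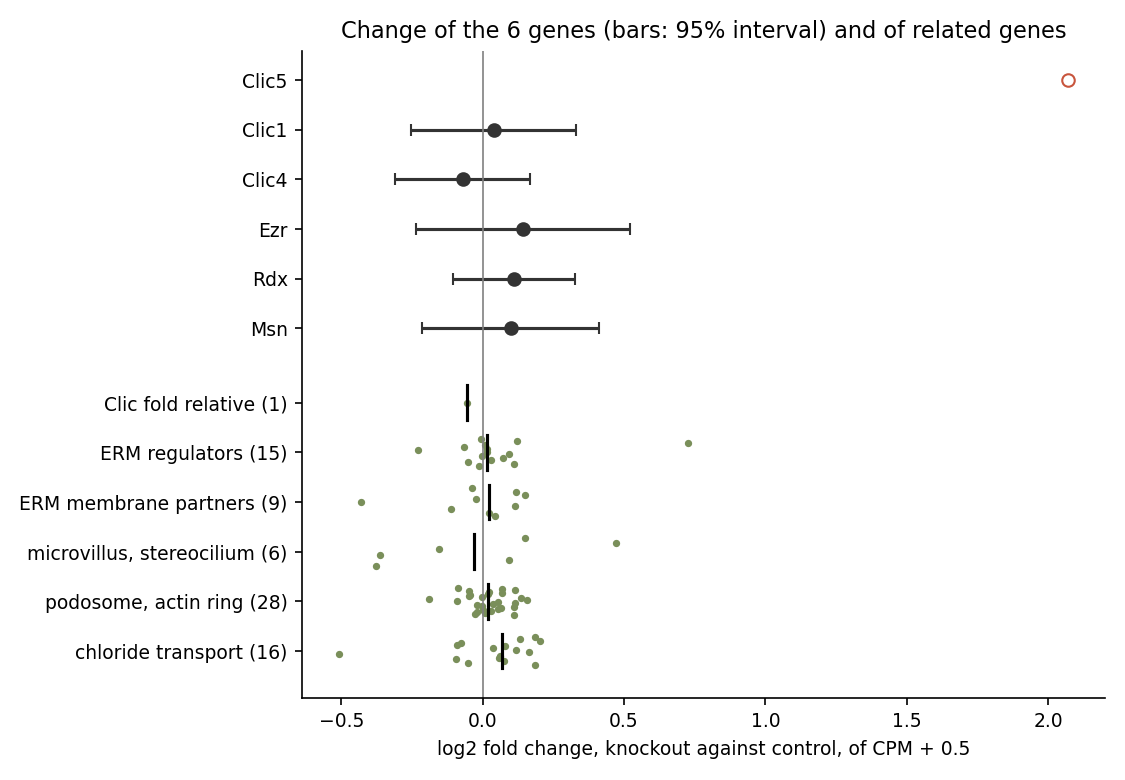
Change between knockout and control on the log2(CPM + 0.5) scale for the 6 genes (upper rows; bars are 95% intervals, and Clic5, open circle, is shown without one) and for the tested genes of 6 related lists (dots, with the number of genes in brackets and the list median as a black line). The 5 other members lie between −0.07 and 0.14 and the list medians between −0.05 and 0.07, against 2.07 for Clic5.

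Levels of different genes can be set side by side only per length, here CPM per kilobase (kb) of the union of a gene's exons. Msn was the most abundant, at 326 and 341 CPM per kb in the controls. Clic1 (98.8 and 120 CPM per kb) and Clic4 (103 and 105 CPM per kb) came next and did not differ beyond their spread. Their order turned with the longest transcript as length, at 121 and 148 CPM per kb for Clic1 against 165 and 168 CPM per kb for Clic4. Rdx followed at 65.5 and 68.9, Ezr at 26.8 and 34.1, and Clic5 was lowest at 2.15 and 3.09 CPM per kb. In the knockouts Clic5 reached 11.0 CPM per kb in both libraries and was still the lowest of the 6.

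The rise of Clic5 was therefore a small part of the Clic transcript pool. Clic5 made up 1.05% and 1.35% of the summed level per kb of the 3 Clic genes in control libraries, and 4.65% and 5.26% of it in knockout libraries. The sum itself was 204 and 229 CPM per kb in the controls and 236 and 209 CPM per kb in the knockouts, so the groups overlapped. With the longest transcript as length, Clic5 had 1.11% and 1.44% of the control sum, against 4.96% and 5.60% of that in knockouts. The makeup of the ERM pool was nearly constant. Msn made up between 76.8% and 78.0% of it in the 4 libraries, Rdx between 15.1% and 16.3% and Ezr between 6.40% and 7.69%.

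**Figure D3:**
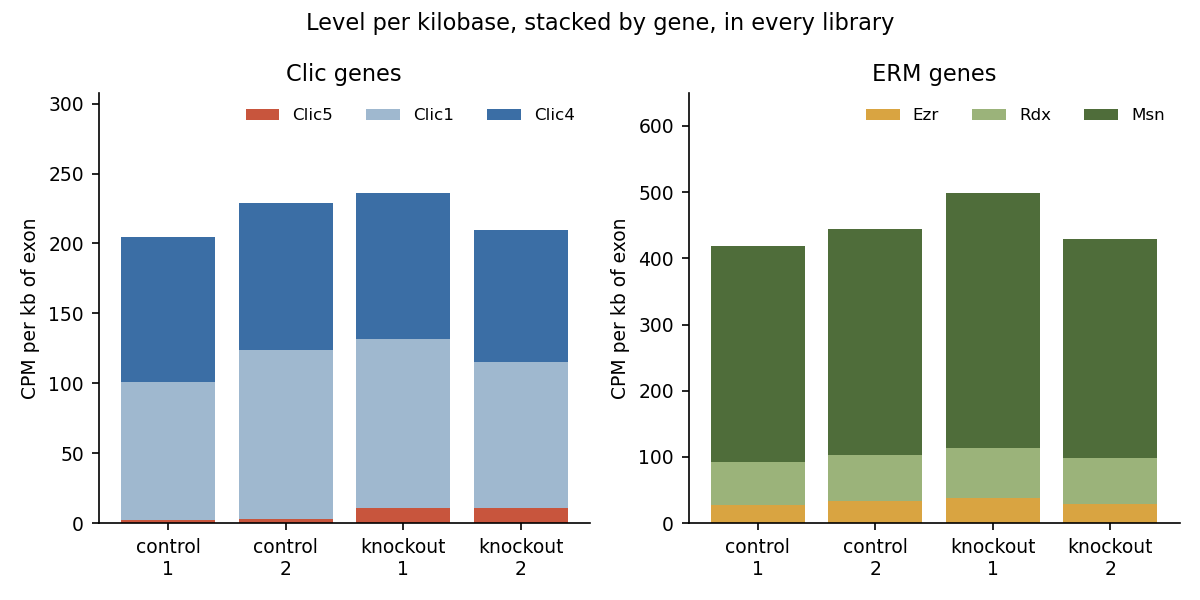
Level per kilobase of exon (CPM per kb, linear axis from 0) of the Clic genes (left) and the ERM genes (right), stacked by gene, in each of the 4 libraries. Clic5 is the thin red base of the left bars, at 1.05% and 1.35% of the control stacks and 4.65% and 5.26% of the knockout stacks, and the total height overlaps between the genotypes.

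The members other than Clic5 varied between libraries of 1 genotype in a shared direction. Ezr was 27.3% higher in control 2 than in control 1 and 32.8% higher in knockout 1 than in knockout 2. For Clic1 these differences were 21.9% and 16.1%, for Msn 4.53% and 16.7%, for Rdx 5.32% and 7.32%, and for Clic4 1.88% and 10.8%. Clic5 followed in the controls and not in the knockouts, where its values differed by 0.2%. In all, 5 of the 6 members were higher in both control 2 and knockout 1, beside 28.4% of all tested genes. Osteoclast markers went the other way: 8 of 9 were lower in both of these libraries, beside 28.1% of tested genes. The exception was Ctsk, at 23060 and 23825 CPM in the controls and 23577 and 26656 CPM in the knockouts. Some differences were small: in control 1 and control 2 Atp6v0d2 was at 4279 and 4271 CPM and Dcstamp at 666 and 649 CPM. The 2 markers that follow were among those that differed more. Ocstamp, a membrane protein needed for fusion of precursors, was at 329 CPM in control 1 and 212 CPM in control 2, and at 199 CPM in knockout 1 and 334 CPM in knockout 2. Nfatc1, the transcription factor that drives osteoclast differentiation, was at 926 and 773 CPM in the controls and 736 and 1036 CPM in the knockouts. This direction was picked after the values were seen, and whether the stage of the cultures had a part in it was not tested.

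**Figure D4:**
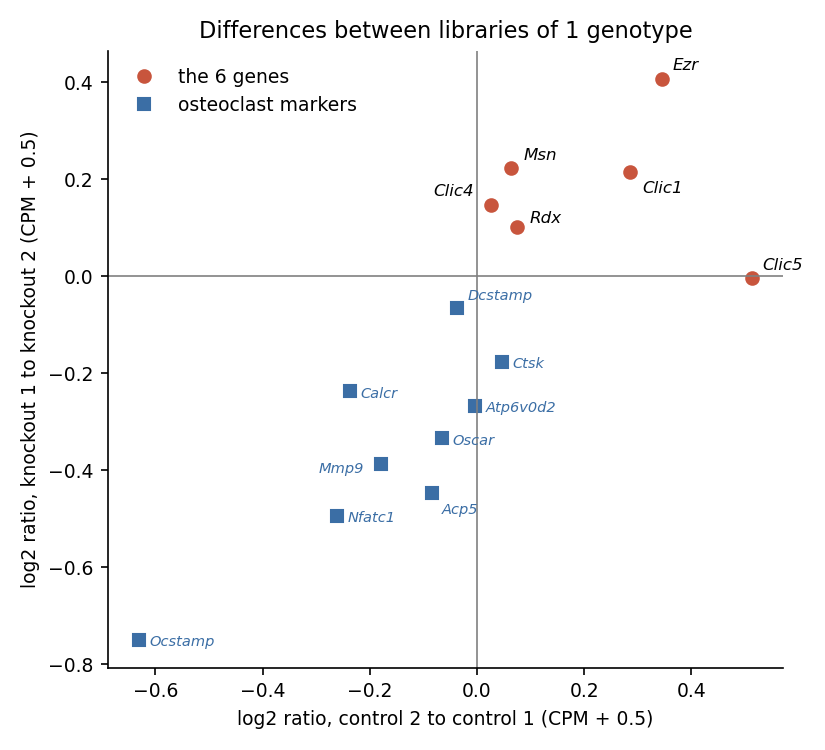
Log2 ratio of control 2 to control 1 (horizontal) and of knockout 1 to knockout 2 (vertical), from CPM + 0.5, for the 6 genes (red circles) and 9 osteoclast markers (blue squares). In the upper right are 5 of the 6 genes, and in the lower left 8 of the 9 markers.

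With all 4 libraries, no gene passed the test in the lists related to the members by fold, binding, regulation, actin structure or chloride transport. Of 75 tested genes in 6 lists, 0 were called by limma, edgeR or DESeq2 and 3 had an unadjusted p under 0.05, beside 4.9% of all genes. The list of other Clic genes and omega-class glutathione transferases was tested through Gsto1 alone, at 75.3 and 67.5 CPM in the controls and 70.8 and 66.5 CPM in the knockouts. Clic3, Clic6 and Gsto2 were not analysed here.

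Regulators of ERM proteins (15 tested) showed 9 higher and 6 lower values, 0 called, and a median change of 0.02 on the log2 scale. Slc9a3r2, a scaffold that binds ERM proteins, had the smallest p of them, at 2.27 and 3.71 CPM in the controls and 4.69 and 5.65 CPM in the knockouts (unadjusted p = 0.0244, limma adjusted p = 0.931). Rock2, a kinase downstream of RhoA, was at 349 and 324 CPM in the controls and 308 and 268 CPM in the knockouts (limma adjusted p = 0.99975). Among membrane proteins whose tails ERM proteins bind, 9 were tested and 0 called, with a median of 0.02. Podoplanin (Pdpn) was at 5.26 and 6.44 CPM in the controls and 4.95 and 3.53 CPM in the knockouts, and Icam1, an adhesion molecule, at 65.8 and 66.1 CPM and at 77.6 and 68.9 CPM.

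Proteins of microvilli and stereocilia, the structures in which CLIC5 is best known, gave 6 tested genes with a median of −0.03 and 0 called. Myo6, an unconventional myosin that moves toward the minus end of actin, was at 42.1 and 38.4 CPM in the controls and 46.1 and 67.8 CPM in the knockouts (log2 fold change 0.47, limma adjusted p = 0.946). It was knockout 2 that stood high, and without knockout 1 Myo6 passed in limma (log2 fold change 0.75, adjusted p = 0.017). Myo7a, a second stereocilium myosin, was at 24.2 and 21.3 CPM in the controls and 19.2 and 15.7 CPM in the knockouts (log2 fold change −0.38, limma adjusted p = 0.983).

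In the list of podosome and sealing zone genes, the actin structures of the resorbing osteoclast, 28 were tested and 0 called, with a median of 0.02 and none at an unadjusted p under 0.05. Ptk2b, the adhesion kinase Pyk2, was at 181 and 162 CPM in the controls and 191 and 186 CPM in the knockouts. Cbl, a ubiquitin ligase that acts with Src, was at 119 and 98.6 CPM and at 108 and 83.7 CPM. Of other chloride channels and exchangers, 16 were tested and 0 called, with a median of 0.07. Lrrc8c, a subunit of volume-regulated anion channels, was at 5.72 and 4.27 CPM in the controls and 3.63 and 3.04 CPM in the knockouts, and Clcn5, an endosomal chloride-proton exchanger, was at 51.8 and 51.2 CPM and at 58.1 and 60.4 CPM. The median over all tested genes was 0.

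Markers of other cell types were set beside the rise of Clic5. Among 16 stromal markers, of fibroblasts and osteoblasts, the log2 fold change was negative for 14, beside 5836 of all 11781 tested genes. By limma 1 fell (Fbn1, a fibrillin), beside 0.161% of all genes called, and 8 were called by DESeq2, beside 0.535%. An unadjusted limma p under 0.05 was found for 9 (beside 4.9%), and the groups did not overlap for 10 (beside 31.9%). The median of the 16 was −0.54. Their summed level was 2295 and 2805 CPM in the controls and 1682 and 1514 CPM in the knockouts. In bulk RNA, fewer cells of a type and less RNA per cell cannot be told apart, and the part of these cells in the values of Clic5 was not tested. Endothelial and epithelial cells carry CLIC5 in other tissues, and their part in the values of Clic5 was not tested. The 4 endothelial markers analysed, of 9 listed, summed to between 7.21 and 10.2 CPM. The 2 epithelial markers analysed, of 5 listed, summed to between 1.85 and 2.38 CPM. The genotypes overlapped in both sums. Of the endothelial markers, Vwf was between 3.44 and 5.21 CPM and Kdr between 2.50 and 3.78 CPM over the 4 libraries, while Cdh5 and Tie1 stayed under 1 CPM in each. Of the epithelial markers, Epcam was between 1.61 and 1.90 CPM, and Krt19 stayed under 1 CPM in each library. Of 9 osteoclast and 9 macrophage markers 0 were called by limma, edgeR or DESeq2, and 1 osteoclast marker, Dcstamp, had an unadjusted p under 0.05 (0.00512, adjusted p = 0.475). Next by p came the osteoclast marker Calcr, the calcitonin receptor, at 96.7 and 82.0 CPM in the controls and 74.2 and 87.5 CPM in the knockouts. First among the macrophage markers were C1qa, at 12.9 and 11.8 CPM against 17.5 and 13.9 CPM, and Mertk, at 7.47 and 2.87 CPM against 7.99 and 7.28 CPM. Of 1 lymphoid, 4 granulocyte and 5 megakaryocyte and erythroid markers tested, 0 were called by limma or edgeR, and 1, the globin Hbb-bs, had an unadjusted p under 0.05 (1.3 and 1.26 CPM against 1.91 and 2.72 CPM). The others with the smallest p were the platelet factor Pf4 (5.97 and 5.11 CPM against 8.91 and 5.54 CPM), Mpo (1.75 and 2.10 CPM against 3.37 and 2.07 CPM), S100a9 (13.3 and 28.2 CPM against 16.0 and 14.5 CPM) and Cd4 (1.69 and 1.68 CPM against 1.39 and 0.924 CPM).

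The position of Clic5 gave a further comparison, because Clic5, Clic1 and Ezr all lie on chromosome 17. Within 3 Mb of the start of Clic5, 54 genes were measured and 49 tested. Only Rcan2, an inhibitor of calcineurin known beforehand to be higher, was called by limma, at 9.87 and 12.1 CPM in the controls and 31.4 and 37.1 CPM in the knockouts (log2 fold change 1.60, SE 0.15, adjusted p = 0.0199). Without control 1 its change was 1.46 and did not pass (limma adjusted p = 0.104), nor did the 1.74 without control 2 (adjusted p = 0.0564). It passed in limma without knockout 1 (1.72, adjusted p = 0.000231) and without knockout 2 (1.48, adjusted p = 0.00153), and with all libraries in edgeR (adjusted p = 0.0212) and DESeq2 (adjusted p = 2.55e-11). The share called was 1 of 49, beside 0.161% of all genes, a description only, as Rcan2 was known beforehand. An unadjusted p under 0.05 was found for 9 of the 49 (18.4%, beside 4.9%), and the groups did not overlap for 24 of them (49.0%, beside 31.9%). Both counts include Rcan2.

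The neighbours differed in direction. Between Rcan2 and Clic5 lie Enpp5 and Enpp4, genes of nucleotide pyrophosphatase and phosphodiesterase family members. Enpp5, whose start is 109.8 kb from that of Clic5, was at 29.4 and 23.0 CPM in the controls and 20.7 and 28.3 CPM in the knockouts. Enpp4, at 82.8 kb, was at 6.36 and 5.46 CPM and at 4.88 and 3.64 CPM. On the other side, Supt3, a transcription co-activator subunit, was at 34.2 and 32.8 CPM in the controls and 25.7 and 31.7 CPM in the knockouts, and Runx2, the osteoblast transcription factor, was at 8.38 and 7.56 CPM and at 6.47 and 5.33 CPM. All 4 had a limma adjusted p of 0.99975. Their log2 fold changes were negative, as were those of 34 of the 49 tested neighbours in all, beside 5836 of all 11781 tested genes. Xpo5, the export receptor of microRNA precursors, was at 59.6 and 56.9 CPM in the controls and 89.6 and 98.2 CPM in the knockouts, 2.01 Mb from Clic5. It was not called by limma (adjusted p = 0.0698) but by DESeq2 (adjusted p = 0.000513). Clic1 and Ezr, farther along the chromosome, did not pass, as given above.

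**Figure D5:**
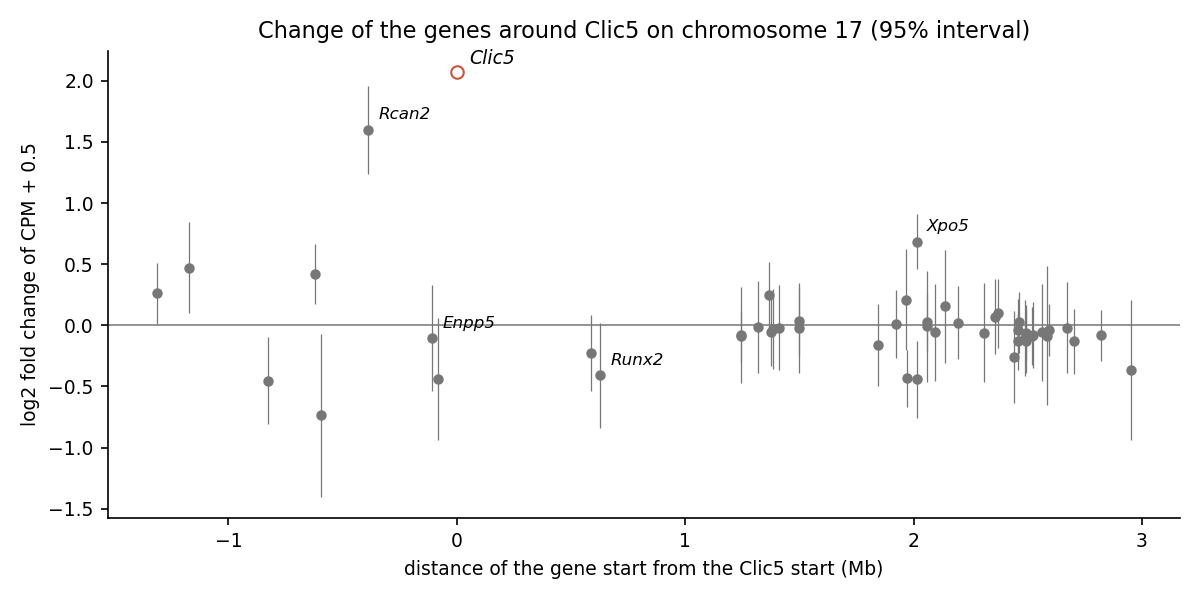
Change on the log2(CPM + 0.5) scale (vertical) of the 49 tested genes within 3 Mb of Clic5, against the distance of their starts from the start of Clic5 in Mb (horizontal; negative is upstream of Clic5); bars are 95% intervals, and Clic5 (open circle) is shown without one. Rcan2 and Clic5 stand apart at 1.60 and 2.07, while Enpp5 and Enpp4 between them lie below 0.

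The 5 tested genes whose profile over the 4 libraries was nearest to that of Clic5 were BC023719, H2-DMb2, Rcan2, H2-Q2 and D3Ertd751e. Their Euclidean distances in log2(CPM + 0.5), centred on each gene's mean, were 0.25, 0.48, 0.53, 0.65 and 0.73, beside a median of 2.11 over all tested genes. As the profile of Clic5 is mostly its genotype difference, this repeats that contrast and is a description only. All but D3Ertd751e lie on chromosome 17, which holds 5.05% of all tested genes. That share gives no test, as the genes were picked by this contrast and Rcan2 was known beforehand. BC023719, H2-DMb2 and H2-Q2 start at 36111426, 34143307 and 35342242, outside the 3 Mb window around Clic5. BC023719, H2-DMb2 and H2-Q2 passed the filter on low values only through the knockouts, with between 0 and 4 reads in each control and between 17 and 36 in each knockout. The H2 genes belong to the histocompatibility family, whose reads can be shared between near-identical copies. D3Ertd751e, on chromosome 3, was at 3.12 and 2.31 CPM in the controls and 9.31 and 10.7 CPM in the knockouts.

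The sequence just before the start of Clic5 is shown because Clic5 is the member chosen for its higher level in the knockouts. It is the 250 bases before the RefSeq start on GRCm38.p6, chr17:44188322-44188571, plus strand, and capitals mark the matches to any of the motifs searched.
Clic5: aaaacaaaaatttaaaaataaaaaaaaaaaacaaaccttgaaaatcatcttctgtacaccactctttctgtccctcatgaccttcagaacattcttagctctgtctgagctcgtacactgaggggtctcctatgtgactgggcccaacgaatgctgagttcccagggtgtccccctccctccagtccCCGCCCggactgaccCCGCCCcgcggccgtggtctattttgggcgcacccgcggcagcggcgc
The motifs were the AP-1 site TGANTCA, the NFAT core GGAAA, the MITF and TFE E-box CACGTG, the TEAD site CATTCC, the PU.1 site GAGGAAGT, the GC box GGGCGG and the CArG box of serum response factor, on both strands. Of these, Clic5 held only the GC box, at 2 places, which is found in 32.7% of 32851 RefSeq windows of that length. The GC box also stood in the windows of Clic1 (1 match), Clic4 (4 matches), Ezr (2 matches) and Msn (3 matches), and in neither window of Rdx. Matches to the AP-1 site, present in 6.75% of windows, stood in the windows of Clic1 and Ezr, 1 each. The NFAT core, present in 55.6% of windows, was matched once each in Clic1, Clic4, Msn and 1 of the 2 windows of Rdx. Msn also held the E-box, present in 6.02% of windows. The TEAD, PU.1 and CArG motifs, present in 12.6%, 2.44% and 1.47% of windows, had no match in the windows of the 6 genes. A match is a description of letters, and neither binding nor activity was measured.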

How the data were processed

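For each of 4 libraries the authors deposited a normalised signal of 12799 genes in a single table. The submitters' processing notes name STAR, featureCounts, Subread, edgeR and the build mm10 (GRCm38), without versions. No source used here gives the filter on low genes, the annotation release or the strand setting. Values were whole multiples of 1 step per column (100% within 0.001 reads), which gave back reads. CPM from these reads with TMM scaling matched the deposited signal to within 4.9e-11.

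Main test: limma 3.58.1 (R 4.3.3) with an intensity trend on log2(CPM + 0.5), 2-sided, for 11781 genes reaching 1 CPM in 2 or more libraries, genotype as the only term, p-values adjusted by the Benjamini-Hochberg method over all of them. This scale understates changes of low genes. Without stated separate cultures or animals for each library, p-values may measure technical spread. Alternatives changed the pseudocount, filter, scaling or variance model, added the replicate block, left out each library, or used edgeR 4.0.16 and DESeq2 1.42.0 on recovered reads. limma was tested on simulated data.

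Members and lists were chosen with earlier results of these data known. Named were the members, Piezo1, called genes or else the 2 with the smallest p per list, called and nearest neighbours of Clic5, and the 5 nearest profiles. Xpo5, Ocstamp, Nfatc1, Acp5, Ctsk, Csf1r, Cdh5, Tie1 and Krt19 fall outside that rule and were picked once their values were known. The same holds for Col3a1, Atp6v0d2, Cd68, Adgre1, Mrc1, C1qb, C1qc and Fcgr1. Positions came from GENCODE M21 (12699 symbols matched), promoters from RefSeq on GRCm38.p6; all 6 members matched both.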

Additional observations from a re-analysis of the deposited data

How the results depend on the processing

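Clic5 was higher in the knockouts under all 15 alternatives, with a log2 fold change from 1.82 to 2.33 with 1 library left out. As Clic5 was included for this rise in the same libraries, these values are a description and give it no support. The 5 other members stayed uncalled under each alternative run, but the sign of 4 of the small changes was not stable. Clic1 turned to −0.10 without control 1 and −0.07 without knockout 1 (range −0.10 to 0.18), and Ezr to −0.031 and −0.061 (range −0.061 to 0.346). Msn turned to −0.013 without knockout 1 (range −0.013 to 0.21) and Clic4 to 0.002 without knockout 2 (range −0.14 to 0.002), while Rdx stayed between 0.06 and 0.16. Of the listed genes 0 were called, except 1, Myo6, without knockout 1 (range 0 to 1). Of the neighbours of Clic5, 1 was called, but 0 without an intensity trend (Rcan2 adjusted p = 0.147), 2 under DESeq2 and 2 with the replicate block, where Xpo5 joined Rcan2, and between 0 and 2 with 1 library left out. The count of all genes called was 19, and it was 4 without the trend, 63 with DESeq2, 6 without control 1, 7 without control 2, 93 without knockout 1, 67 without knockout 2 and 89 with the replicate block. The labels give both genotypes the replicate numbers 1 and 2. Differences between replicates 1 and 2 did not correlate between genotypes (r = −0.0016 across genes, which are not independent). That value cannot show whether samples of the same number shared a culture, a day or an animal, which the labels do not say. Leaving out a library leaves 1 in its group, which is then assumed to vary like the other genotype. With 2 libraries a group, changes of 1.5-fold, and some of 2-fold, could be missed.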
